A study of Rattus norvegicus with 9 samples.

Results

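Fkbp5, Klf9, Arrdc2, Sult1a1, Mt2A and Tsc22d3 are 6 genes that glucocorticoids are known to induce, and they are described here in the hypothalamus of female rats across the days around puberty. The 6 genes were chosen with earlier results of these data known. Their probe sets were taken by annotation: every probe set whose platform annotation names exactly 1 gene symbol, that of a listed gene. That gave 9 of 31042 probe sets and 6 of 14217 named genes. Arrays came from normally developing, untreated female rats at 3 stages: juvenile at day 26, which the labels call the control, early pubertal at day 29 and late pubertal at day 31. Each stage had 3 single-channel Affymetrix arrays, 1 rat per array by its labels. No genotype, agent or surgery is named for any stage. Whole hypothalamus mixes neurons, glia, vessels and adhering membranes, so fewer cells of a type and less RNA per cell cannot be told apart in any value below.

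Glucocorticoids enter cells and bind the glucocorticoid receptor, which leaves a chaperone complex built on Hsp90, moves to the nucleus and binds response elements at its target genes. The mineralocorticoid receptor binds the same hormones with higher affinity and shares many targets in brain. In the hypothalamus this hormone signal closes the feedback loop that restrains corticotropin-releasing hormone. Of the 6 genes, Fkbp5 acts on the receptor itself, Klf9 and Tsc22d3 encode transcriptional regulators, Arrdc2 encodes a trafficking adaptor, and Sult1a1 and Mt2A encode an enzyme and a metal-binding protein. All of them answer to other signals as well.

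The deposited values are signal intensities, and the level of the arrays differed. Median signal was 102 to 113 on juvenile, 79.8 to 101 on early pubertal and 102 to 122 on late pubertal arrays. An exact two-sided permutation test of the array medians gave p = 0.1 for early pubertal against juvenile arrays, which is as low as groups of 3 allow, and p = 0.9 for late pubertal against juvenile arrays. Levels are therefore given as log2(signal + 16) after quantile normalization between arrays, and differences on that scale understate the change of dim probe sets. The signal ratio of the 3′ to the 5′ beta-actin control was highest on late pubertal replicate 20 and juvenile replicate 2, at 3.24 and 3.16. It was lowest on early pubertal replicate 8, at 2.14, and ran from 2.27 to 2.86 on the other arrays. Whether this ratio bears on any difference below was not tested. Of the hypothalamic peptide genes, Pmch gave signals from 5547 to 7664, Avp from 2021 to 4602, Trh from 359 to 553 and Nts from 268 to 422, while Pomc and Gnrh1 were too dim to be tested.

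Between day 26 and day 31, 4 of the 6 genes separated the stages. All 3 late pubertal arrays lay above all 3 juvenile arrays for Klf9, Fkbp5, Sult1a1 and Arrdc2, with fold differences of 1.27, 1.28, 1.32 and 1.58 on the brightest probe set of each gene. Among all 18625 tested probe sets the same separation was seen for 5.90%, and the opposite separation, which none of the 6 genes showed, for 5.52%. Mt2A and Tsc22d3 had log2 differences of −0.09 and −0.05 with overlapping arrays. By limma with Benjamini-Hochberg adjustment over all tested probe sets 0 of the 6 genes were called, and 0% of all tested probe sets were called. Before adjustment a limma p under 0.05 with a positive difference was reached by 4 of the 6 genes, beside 2.23% of all tested probe sets. The median log2 difference was 0.35 over the 6 genes and −0.0015 over all tested probe sets. Because the 6 genes were chosen with earlier results of these data known, these counts beside the background shares do not test them as a group. The same holds for the ranks and shares of single genes below.

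**Figure D1:**
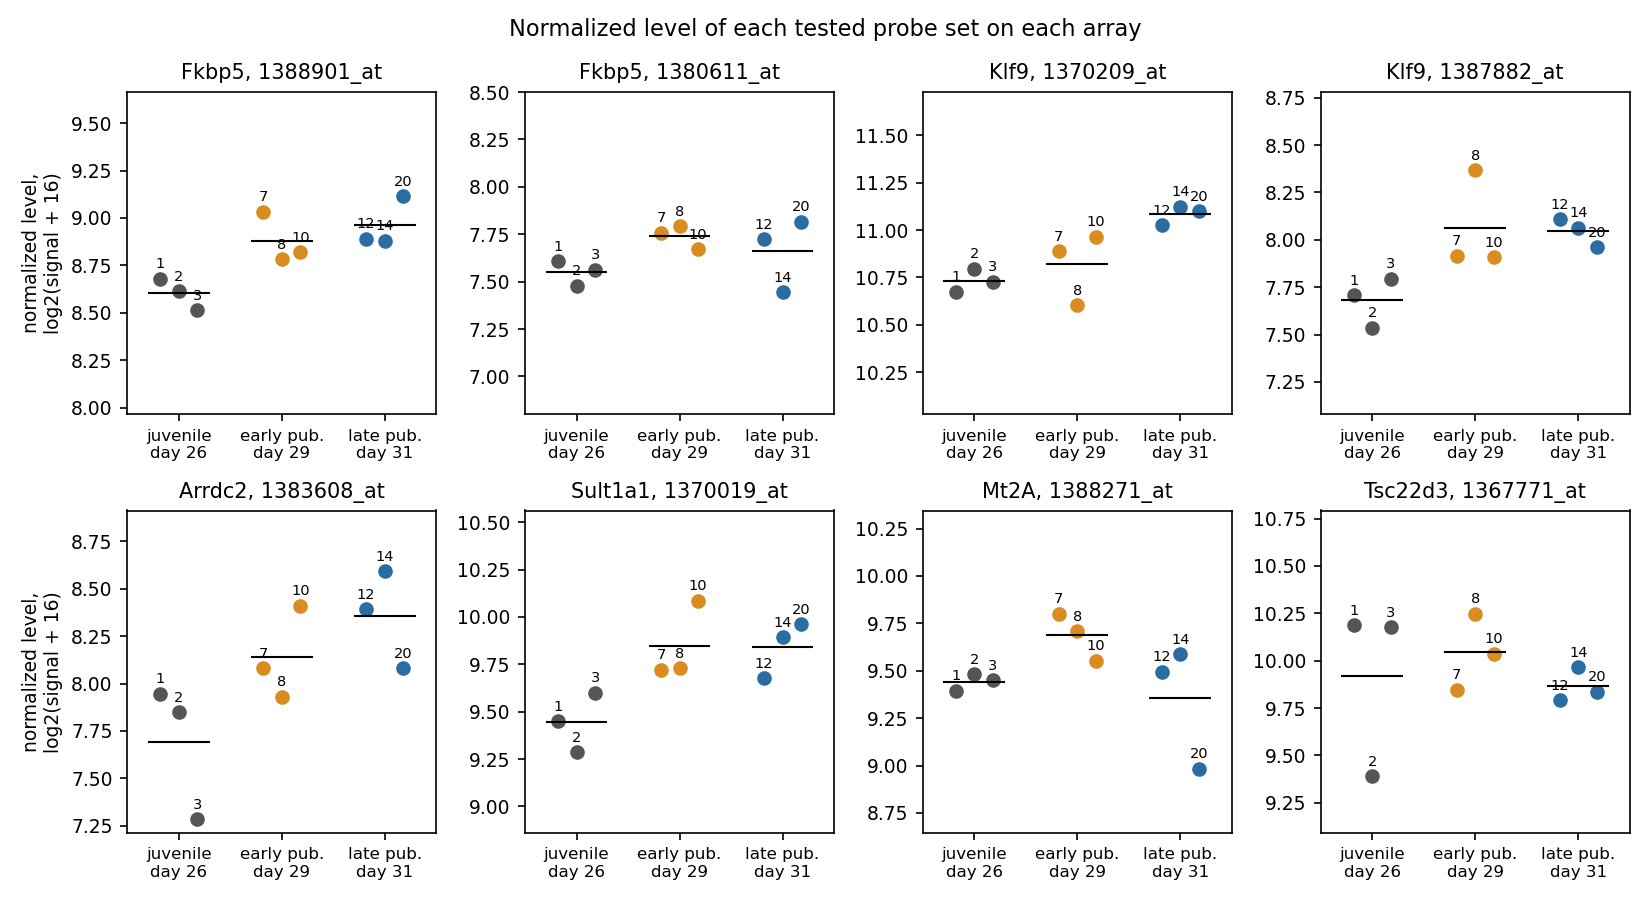
Normalized level, log2(signal + 16), of the 8 tested probe sets of the 6 genes on each array. Points are arrays labelled with the replicate number, horizontal lines are stage means (n = 3), and each panel spans the same log2 range. Late pubertal points lie above all juvenile points for the first Fkbp5 panel, both Klf9 panels, Arrdc2 and Sult1a1, and juvenile replicate 2 is the lowest point for Tsc22d3.

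Between day 26 and day 29, 3 of the 6 genes separated the stages, each with early pubertal arrays above juvenile arrays. These were Sult1a1 with a fold difference of 1.32, Fkbp5 with 1.21 and Mt2A with 1.19. The background share of this separation was 3.86%, and that of the opposite separation, shown by none of the 6 genes, was 4.43%. The log2 differences of all 6 genes were above 0, with a median of 0.26, but at the level of the arrays as deposited those of Klf9, Mt2A and Tsc22d3 turned to −0.14, −0.01 and −0.13 and 0 of the 6 genes separated the stages, beside 0.129% of all tested probe sets at that level. The median over all tested probe sets was −0.24 at that level and −0.0014 after normalization, so relative to it all 6 genes stood above the median in both. Limma called 0 of the 6 genes and 0% of all tested probe sets, while a limma p under 0.05 before adjustment with a positive difference was reached by 3 of the 6 genes, Sult1a1, Fkbp5 and Arrdc2, and by 1.92% of all tested probe sets.

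Between day 29 and day 31 Klf9 separated the stages after quantile normalization, by a fold of 1.20 on its brightest probe set, beside 5.97% of tested probe sets with this separation and 5.37% with the opposite. With median centring the Klf9 arrays overlapped, and Mt2A was the separated gene, with late pubertal arrays below all early pubertal arrays, beside 5.22% of tested probe sets. Log2 differences were above 0 for 3 genes, Klf9, Arrdc2 and Fkbp5, and below 0 for Mt2A, Tsc22d3 and Sult1a1, and without normalization between arrays Tsc22d3 and Sult1a1 turned to 0.04 and 0.21. Limma called 0 of the 6 genes and 0% of all tested probe sets. A limma p under 0.05 before adjustment was reached by Klf9 with a positive difference, as by 2.94% of tested probe sets, and by Mt2A with a negative one, as by 2.27%. The 3 comparisons share arrays, so their values are given side by side and are not independent of each other.

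**Figure D2:**
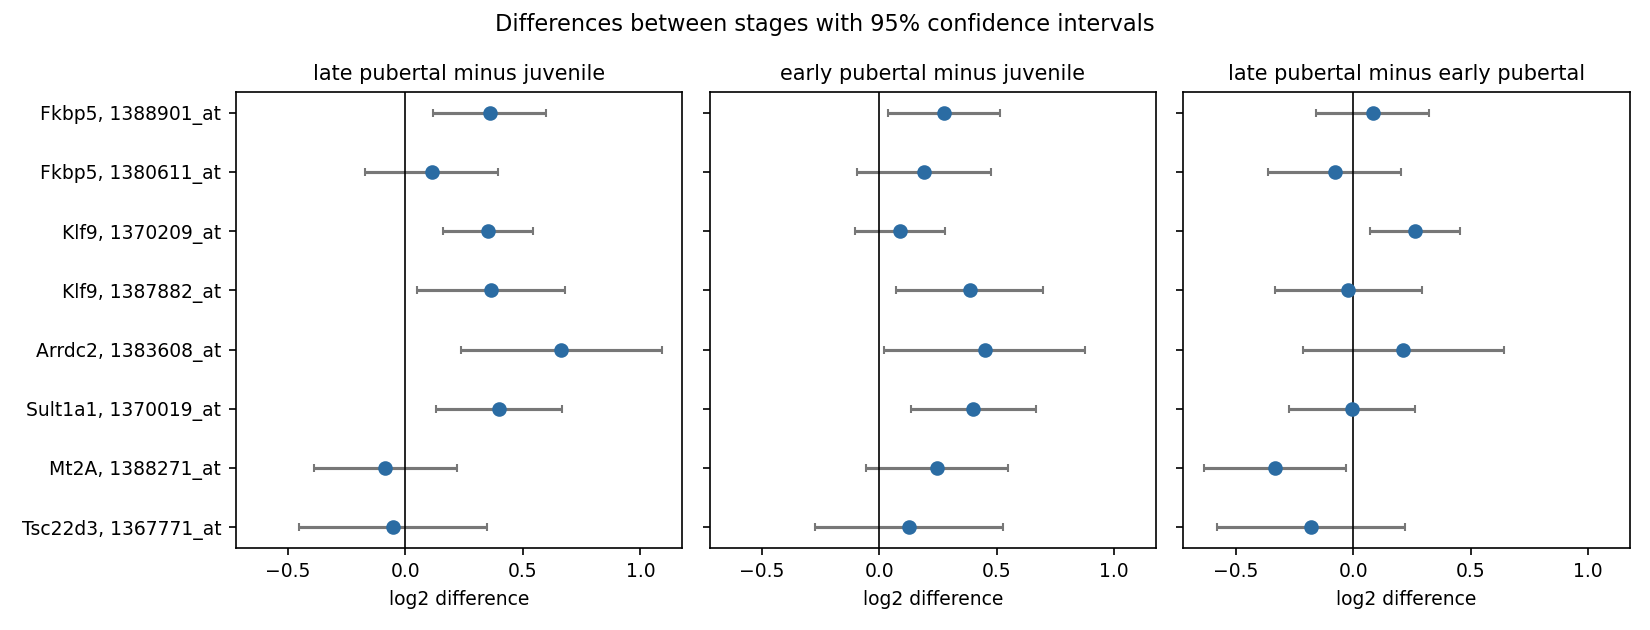
Log2 differences between stages for the 8 tested probe sets (points) with 95% confidence intervals of the limma fit (bars), in 3 panels for late pubertal minus juvenile, early pubertal minus juvenile and late pubertal minus early pubertal. Intervals of Klf9, Arrdc2, Sult1a1 and the brighter Fkbp5 probe set lie above 0 in the first panel, before any adjustment for multiple tests.

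Fkbp5 encodes a cochaperone that sits in the Hsp90 complex of the glucocorticoid receptor, lowers the receptor's affinity for hormone and is itself induced by the activated receptor. On its brighter probe set, 1388901_at, the deposited signal was 463, 398 and 348 on juvenile replicates 1, 2 and 3, 501, 368 and 359 on early pubertal replicates 7, 8 and 10, and 450, 460 and 631 on late pubertal replicates 12, 14 and 20. Normalized levels were 8.68, 8.61 and 8.51 on juvenile, 9.03, 8.78 and 8.82 on early pubertal and 8.89, 8.88 and 9.11 on late pubertal arrays. Every pubertal array thus lay above every juvenile array, while the early and late pubertal arrays overlapped. The log2 difference from juvenile animals was 0.36 ± 0.11 (SE, n = 3 per stage) in late pubertal animals, with a 95% confidence interval of 0.12 to 0.60, and 0.28 ± 0.11 in early pubertal animals, with an interval of 0.04 to 0.51. The limma adjusted p was 0.9998 and 0.994. At the deposited level the early pubertal difference was 0.01. The dimmer probe set, 1380611_at, had log2 differences of 0.11 ± 0.13 in late and 0.19 ± 0.13 in early pubertal animals. On it the early pubertal arrays again lay above all juvenile arrays, and late pubertal replicate 14, at 7.44, lay below all of them. The Fkbp5 probe sets correlated at r = 0.609 over the 9 arrays. For scale, the median r between the 2 brightest probe sets of a gene was 0.149 over the 2775 tested genes that have them.

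Klf9 encodes a zinc finger transcription factor that glucocorticoids and thyroid hormone induce in neurons. Its brightest probe set, 1370209_at, had deposited signals of 1916, 1812 and 1641 on juvenile, 1843, 1345 and 1715 on early pubertal, and 2022, 2246 and 2489 on late pubertal arrays. Normalized levels were 10.67, 10.80 and 10.73 on juvenile replicates 1, 2 and 3, 10.89, 10.60 and 10.97 on early pubertal replicates 7, 8 and 10, and 11.03, 11.12 and 11.10 on late pubertal replicates 12, 14 and 20. Late pubertal arrays were the 3 highest of all 9, both as deposited and after normalization, and early pubertal arrays spread across the juvenile range. Late pubertal animals differed from juvenile animals by 0.35 ± 0.09 on the log2 scale (SE, n = 3 per stage, 95% confidence interval 0.16 to 0.54) and from early pubertal animals by 0.26 ± 0.09 (0.07 to 0.45), with limma adjusted p of 0.9998 and 0.914. Its limma p for late pubertal against juvenile animals ranked 29 of 18625, the lowest of the 6 genes, and the value without any single array ran from 0.32 to 0.38.

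The Klf9 probe sets differed in the early stage, and the difference rested on early pubertal replicate 8. On 1387882_at the log2 difference from juvenile animals was 0.36 ± 0.14 in late pubertal animals, close to that of the brightest probe set, and 0.38 ± 0.14 in early pubertal animals, where the brightest probe set gave 0.09 ± 0.09. Levels on 1387882_at were 7.71, 7.54 and 7.80 on juvenile, 7.92, 8.37 and 7.91 on early pubertal and 8.11, 8.06 and 7.96 on late pubertal arrays. Early pubertal replicate 8 was the lowest of the 9 arrays on 1370209_at and the highest on 1387882_at. Without it the early pubertal difference from juvenile animals was 0.23 on 1387882_at and 0.19 on 1370209_at. These probe sets correlated at r = 0.116 over the 9 arrays. The third probe set, 1390076_at, lay below the signal filter at a mean log2 level of 5.69, against a threshold of 6.30, and was not tested with the others. Its deposited signals ran from 22.3 to 59.0, and in a fit of all probe sets its difference from juvenile animals was −0.07 ± 0.28 in late and 0.17 ± 0.28 in early pubertal animals. Which transcript each probe set reads was not tested.

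The Klf9 promoter is shown because Klf9 had the lowest limma p of the 6 genes in the late comparison. It is the 250 bases before and 50 bases after the RefSeq transcription start in GRCr8 (chr1:230126396-230126695, plus strand), all in lower case because none of the motifs searched was found in it:
Klf9: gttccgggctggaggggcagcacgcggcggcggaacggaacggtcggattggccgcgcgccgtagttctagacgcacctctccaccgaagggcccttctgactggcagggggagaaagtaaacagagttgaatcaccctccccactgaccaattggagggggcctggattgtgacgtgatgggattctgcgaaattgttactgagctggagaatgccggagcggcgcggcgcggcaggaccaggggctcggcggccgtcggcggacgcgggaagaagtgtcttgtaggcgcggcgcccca
The motifs, searched on both strands, were the palindromic glucocorticoid response element written as AGAACA, any 3 bases and TGTTCT, with up to 2 of the 12 fixed letters differing, its single arm TGTTCT, and the metal response element cores TGCACNC and TGCGCNC. Single arms can overlap the palindrome. Of all 33469 promoters of this length, 1.87% hold the palindrome with up to 2 differences, 20.7% the single arm and 24.2% a metal response element core. All 6 genes had a promoter in the table, and those of Fkbp5, Arrdc2 and Tsc22d3 also held none of these motifs. That says only that the letters are not within this window.

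Arrdc2 encodes an alpha-arrestin, a family of adaptors that direct membrane proteins to ubiquitination and endosomal sorting, and glucocorticoids induce it in muscle. Its only probe set, 1383608_at, had deposited signals of 267, 228 and 139 on juvenile, 250, 199 and 266 on early pubertal, and 313, 371 and 301 on late pubertal arrays. Normalized levels were 7.95, 7.85 and 7.28 on juvenile, 8.08, 7.93 and 8.41 on early pubertal and 8.39, 8.59 and 8.08 on late pubertal arrays. Late pubertal arrays lay above all juvenile arrays on both scales, juvenile replicate 3 was the lowest array, and early pubertal arrays overlapped both stages. The log2 difference from juvenile animals was 0.66 ± 0.20 in late pubertal animals (SE, n = 3 per stage, 95% confidence interval 0.23 to 1.09) and 0.45 ± 0.20 in early pubertal animals (0.02 to 0.88). The limma adjusted p was 0.9998 and 0.994. Only 0.344% of tested probe sets had a higher late pubertal difference. Without juvenile replicate 3 the late and early pubertal differences were 0.46 and 0.24, and at the deposited level the early pubertal difference was 0.20.

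Sult1a1 encodes a cytosolic sulfotransferase that adds sulfate to phenolic compounds, among them catecholamines and estrogens, and glucocorticoids induce it in rat liver. On its probe set, 1370019_at, deposited signals were 811, 641 and 748 on juvenile, 821, 715 and 911 on early pubertal, and 782, 938 and 1142 on late pubertal arrays. Normalized levels were 9.45, 9.29 and 9.60 on juvenile, 9.72, 9.73 and 10.09 on early pubertal and 9.68, 9.89 and 9.96 on late pubertal arrays. After normalization every pubertal array lay above every juvenile array, whereas the deposited signals of both pubertal stages overlapped those of juvenile arrays. The log2 difference from juvenile animals was 0.40 ± 0.12 in late pubertal animals (SE, n = 3 per stage, 95% confidence interval 0.13 to 0.67) and 0.40 ± 0.12 in early pubertal animals (0.13 to 0.67), with limma adjusted p of 0.9998 and 0.994. At the deposited level the early pubertal difference was 0.15. Late minus early pubertal animals gave −0.003 with an interval of −0.27 to 0.26, and 0.21 at the deposited level.

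The Sult1a1 promoter is shown because it was the only one of the 6 to hold the palindrome (chr1:190706063-190706362, minus strand, RefSeq, GRCr8). Capitals mark the match, which has 2 letters differing and lies 89 to 75 bases before the start, and whose first 6 letters are also the only single arm in the window:
Sult1a1: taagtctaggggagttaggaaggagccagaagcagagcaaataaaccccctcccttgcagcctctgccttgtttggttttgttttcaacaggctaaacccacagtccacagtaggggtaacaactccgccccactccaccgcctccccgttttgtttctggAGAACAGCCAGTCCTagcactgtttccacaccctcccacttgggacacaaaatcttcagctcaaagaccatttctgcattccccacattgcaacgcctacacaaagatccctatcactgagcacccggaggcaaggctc
The match is a description of these letters, and no binding was measured.

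Mt2A encodes a metallothionein, a small cysteine-rich protein that binds zinc and copper, and both metals and glucocorticoids induce it. Its probe set, 1388271_at, had deposited signals of 778, 734 and 671 on juvenile, 865, 706 and 617 on early pubertal, and 688, 756 and 575 on late pubertal arrays. Normalized levels were 9.40, 9.48 and 9.45 on juvenile, 9.80, 9.71 and 9.55 on early pubertal and 9.50, 9.59 and 8.98 on late pubertal arrays. Early pubertal arrays lay above all juvenile arrays after normalization but not as deposited, and late pubertal replicate 20 lay below every other array on both scales. The log2 difference from juvenile animals was −0.09 ± 0.14 in late pubertal animals (SE, n = 3 per stage, 95% confidence interval −0.39 to 0.22) and 0.25 ± 0.14 in early pubertal animals (−0.06 to 0.55). Without late pubertal replicate 20 the late pubertal difference was 0.10. Late minus early pubertal animals gave −0.33 ± 0.14 (−0.64 to −0.03), and −0.15 without that array, with a limma adjusted p of 0.914 over all 9 arrays. Mt1 and Mt2A are close in sequence, and no probe sequences were available, so whether this probe set also reads Mt1 was not tested. The probe set that names Mt1 alone gave signals of only 1.39 to 17.8 and lay below the filter.

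The Mt2A promoter is shown beside that of Sult1a1 because it held no glucocorticoid motif and 4 metal response element cores, marked in capitals (chr19:10838659-10838958, minus strand, RefSeq, GRCr8):
Mt2A: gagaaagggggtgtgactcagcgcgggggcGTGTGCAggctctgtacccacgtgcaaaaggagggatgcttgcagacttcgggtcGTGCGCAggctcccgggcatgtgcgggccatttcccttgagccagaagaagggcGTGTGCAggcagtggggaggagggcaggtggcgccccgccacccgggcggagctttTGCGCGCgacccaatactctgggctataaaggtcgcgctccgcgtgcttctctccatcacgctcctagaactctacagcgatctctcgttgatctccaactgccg
At least 4 such cores were found in 0.439% of all promoters of this length. Sult1a1 and the other 4 promoters held none.

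Tsc22d3 encodes GILZ, the glucocorticoid-induced leucine zipper, which binds and restrains inflammatory transcription factors and is a widely used marker of receptor activity. Its probe set, 1367771_at, had deposited signals of 1364, 688 and 1120 on juvenile, 895, 1027 and 877 on early pubertal, and 847, 989 and 1055 on late pubertal arrays. Normalized levels were 10.19, 9.39 and 10.18 on juvenile, 9.85, 10.25 and 10.04 on early pubertal and 9.79, 9.97 and 9.84 on late pubertal arrays. Juvenile replicate 2 was the lowest array and the other 2 juvenile arrays stood above every late pubertal array, so the stages overlapped. The log2 difference from juvenile animals was −0.05 ± 0.18 in late pubertal animals (SE, n = 3 per stage, 95% confidence interval −0.45 to 0.35) and 0.13 ± 0.18 in early pubertal animals (−0.27 to 0.53). Without juvenile replicate 2 these values were −0.32 and −0.14, and without juvenile replicate 1 or 3 the late pubertal value was 0.08 in both cases. The sign of the Tsc22d3 differences thus rested on single arrays. The late pubertal sign turned without juvenile replicate 1 or 3, and the early pubertal sign without juvenile replicate 2. The spread of Tsc22d3 within stages, a residual SD of 0.293, was larger than that of 84.7% of tested probe sets. That of Arrdc2, at 0.291, was larger than that of 84.4%. Fkbp5 and Klf9 had residual SDs of 0.119 and 0.119, larger than only 24.9% and 24.8%.

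Set side by side over the 9 arrays, Fkbp5, Klf9, Arrdc2 and Sult1a1 correlated with each other at r = 0.552 to 0.701 in their 6 pairs. These 4 were the genes whose late pubertal arrays lay above all juvenile arrays, so a positive r was set in part by that choice. With the stage means removed, the same pairs ran from −0.10 to 0.43. Mt2A and Tsc22d3 correlated with these 4 genes at r = −0.39 to 0.32, and at −0.52 to 0.46 with the stage means removed. These are descriptions over arrays that share stages and a normalization.

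The genes most like each of the 6 over the 9 arrays were sought among 10599 other named genes. Tsc22d3 was matched most closely, by Morf4l2 at r = 0.980, Dicer1 at 0.974 and Slc39a7 at 0.973. Fkbp5 was followed by Ide, Eci1 and Prodh at r = 0.944, 0.926 and 0.923, and Klf9 by Esyt3, Cfap36 and Wnt4 at 0.941, 0.937 and 0.931. Arrdc2 was followed by Rrp12, Pygl and Tbc1d14 at r = 0.935, 0.933 and 0.931, Sult1a1 by Hacl1, Rpl23 and Kars1 at 0.952, 0.947 and 0.923, and Mt2A by Wdr73, Zfp12 and Rtel1 at 0.954, 0.940 and 0.908. The highest r that any tested gene reached with another had a median of 0.95 over all 10600 genes. The best matches of the other genes lay between 0.935 and 0.954, near that median, and that of Tsc22d3 exceeded 94.0% of them. Tsc22d3 lay at 9.39 on juvenile replicate 2, against 9.79 to 10.25 on the other arrays. How far that array set its r values was not tested. None of the 18 matched genes was another listed glucocorticoid-induced gene. Beside the 6 genes only 24 listed genes were tested, so few among 10599 that the absence of a match carries no information.

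Other genes that glucocorticoids induce were then counted. Of 34 listed, 31 had a named probe set and 24 were tested. Between late pubertal and juvenile animals, 19 of the 24 had a difference above 0 and 5 below, beside 49.6% of all tested probe sets above 0. Their median log2 difference was 0.13. All late pubertal arrays lay above all juvenile arrays for 8 of them, beside the 5.90% of all tested probe sets. Limma called 0 of the 24, and 5 had a limma p under 0.05 before adjustment, beside 4.14% of all tested probe sets. Sgk1, Gpd1 and Ndrg1 were among both the 8 and the 5. The list was chosen with earlier results of these data known. Its counts, here and for early pubertal animals, therefore do not test it as a group. Sgk1, a kinase that both corticosteroid receptors induce, differed by 0.98 ± 0.25 (SE, n = 3 per stage), the cytosolic glycerol-3-phosphate dehydrogenase Gpd1 by 0.68 ± 0.13, Errfi1, an inhibitor of EGF receptor signalling, by 0.49 ± 0.17 and Ndrg1, a stress-responsive gene of glia, by 0.36 ± 0.09. The circadian gene Per1 differed by 0.57 ± 0.43 and the phosphatase gene Dusp1, also an immediate early gene, by 0.02 ± 0.09. Arrdc2 thus stood near the top of these 30 genes by size of difference, and Tsc22d3 and Mt2A near the bottom. At the deposited level limma called Sgk1 between late and early pubertal animals, with a log2 difference of 0.88 and an adjusted p of 0.043 beside a median of 0.22 over all tested probe sets. In early pubertal animals 18 of the 24 were above 0, beside 49.6% of all tested probe sets, with a median of 0.10. All early pubertal arrays lay above all juvenile arrays for 2 of them, beside 3.86%. At the deposited level, where 7.22% of all tested probe sets were above 0 in this comparison, the 24 genes were not counted.

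**Figure D3:**
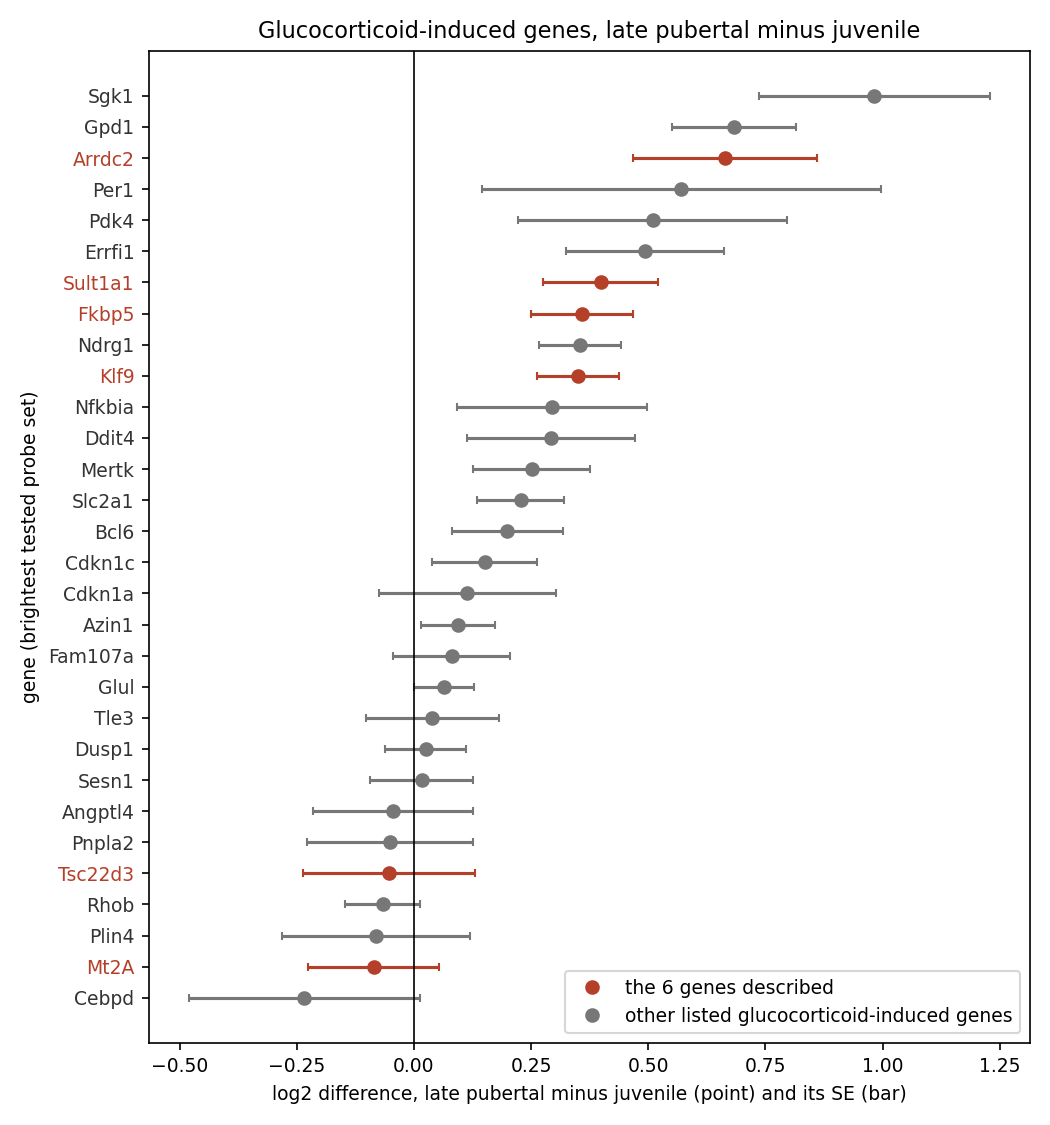
Log2 difference between late pubertal and juvenile animals (points) with the SE of the fit (bars) for the 6 genes described (red) and the 24 other tested glucocorticoid-induced genes (grey), sorted by difference. Sgk1 at 0.98 and Cebpd at −0.23 mark the ends, and Arrdc2, Sult1a1, Fkbp5 and Klf9 lie in the upper part.

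Genes that carry or gate the hormone signal were closer to 0. Of 15 tested receptors, cochaperones and steroid-converting or exporting genes, 8 had a late pubertal difference above 0 and 7 below, beside 49.6% of all tested probe sets above 0. Their median log2 difference was 0.01. Limma called 0 of them, and 0 had a limma p under 0.05 before adjustment, beside 4.14% of all tested probe sets. The glucocorticoid receptor gene Nr3c1 differed by −0.07 ± 0.09 (SE, n = 3 per stage) in late and −0.18 ± 0.09 in early pubertal animals, and the mineralocorticoid receptor gene Nr3c2 by 0.30 ± 0.17 and 0.01 ± 0.17. Hsd11b1, which regenerates active glucocorticoid inside cells, differed by 0.17 ± 0.11 in late pubertal animals and Fkbp4, the cochaperone that opposes Fkbp5, by 0.18 ± 0.16. Late pubertal arrays lay above all juvenile arrays for 2 of the 15 genes, Hsd11b1 and the drug exporter gene Abcb1a, beside 5.90% of all tested probe sets, and below them for 1, the Hsp90 cochaperone gene Ptges3, beside 5.52%. Crh, the hypothalamic releasing hormone that glucocorticoids restrain, differed by −0.39 ± 0.19 in late and −0.45 ± 0.19 in early pubertal animals, and Avp, its partner in driving the pituitary, by 0.02 ± 0.23 and −0.03 ± 0.23. Limma called none of these. Before adjustment the early pubertal difference of Crh had a limma p under 0.05, as had 4.46% of all tested probe sets in that comparison. Early pubertal arrays of Crh, a gene with a mean signal of 110, all lay below the juvenile arrays, beside 4.43%. Of 4 tested genes of the hypothalamic-pituitary-adrenal axis, Crh, Avp, Crhbp and Avpr1a, 1 was above 0 and 3 below in each pubertal stage against juvenile animals.

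Family relatives of the 6 genes, and for Mt2A a list of metallothionein and zinc-handling genes, gave no gene called by limma. In the late comparison only Arrdc1 and Slc30a3 had a limma p under 0.05 before adjustment, beside 4.14% of all tested probe sets. A late pubertal difference above 0 was seen for 49.6% of all tested probe sets. Among FK506-binding proteins, 10 of 13 had a late pubertal difference above 0, with a median of 0.04, against 0.36 for Fkbp5. Fkbp9 differed by 0.34 ± 0.16 and Fkbp14 by 0.28 ± 0.14. Among other Kruppel-like factors 5 of 11 were above 0 and the median was −0.02, against 0.35 for Klf9, with Klf13 at 0.20 ± 0.12 and Klf3 at −0.21 ± 0.12. All 4 tested arrestin domain relatives of Arrdc2 were above 0, Arrdc1 at 0.31 ± 0.14 and Arrdc4 at 0.22 ± 0.19, Txnip at 0.13 ± 0.15 and Arrdc3 at 0.02 ± 0.12. Only 2 of 8 other sulfotransferases passed the signal filter, Sult1d1 at 0.31 ± 0.22 and Sult4a1 at −0.11 ± 0.13. Metallothionein and zinc-handling genes, which are not all of the Mt2A family, were above 0 for 1 of 6. The brain metallothionein Mt3 stood at −0.06 ± 0.06. The vesicular zinc transporter Slc30a3 stood at −0.56 ± 0.15, and its late pubertal arrays all lay below the juvenile arrays. Tsc22d1, Tsc22d2 and Tsc22d4 gave −0.06 ± 0.05, 0.17 ± 0.13 and −0.05 ± 0.09. Late pubertal arrays lay above all juvenile arrays for Fkbp11, Fkbp14, Klf13 and Arrdc1, beside 5.90% of all tested probe sets. They lay below them for Fkbp8, Klf3 and Slc30a3, beside 5.52%. The difference between each of the 6 genes and the genes listed beside it was not tested.

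Markers of the cell types in the tissue were counted beside the late pubertal differences. Of all tested probe sets, 49.6% had a late and 49.6% an early pubertal difference above 0. Leptomeningeal and fibroblast markers had a difference above 0 for 15 of 15 genes, and their summed normalized signal was 15680 to 18546 on late pubertal arrays and 13220 to 16106 on juvenile arrays. Astrocyte markers were above 0 for 11 of 13 genes, with sums of 41193 to 44476 on late pubertal and 40886 to 41600 on juvenile arrays. Endothelial and mural markers were above 0 for 7 of 14 genes, choroid plexus markers for 4 of 5, oligodendrocyte markers for 7 of 12, hypothalamic neuron markers for 8 of 16, red blood cell markers for 2 of 2 and microglial markers for 1 of 8. Microglial sums were 2051 to 2145 on late pubertal and 2227 to 2465 on juvenile arrays, without overlap. On early pubertal arrays the leptomeningeal sum was 13735 to 20178, highest on replicate 10. By normalized level on the brightest probe set, replicate 10 was also the highest early pubertal array for Klf9, Arrdc2 and Sult1a1. Fkbp5 and Mt2A were highest on replicate 7 and Tsc22d3 on replicate 8. The other tested probe sets differed: replicate 10 was the lowest early pubertal array for Klf9 on 1387882_at, and replicate 8 the highest for Fkbp5 on 1380611_at. Immediate early genes, which respond quickly to stimulation and handling, were above 0 for 6 of 11 in late and 1 of 11 in early pubertal animals. No tested marker was at 0 on any array. Limma called none. In the late comparison a p under 0.05 before adjustment was reached by 3 leptomeningeal markers, 4 astrocyte markers, 4 endothelial and mural markers (Slco1a4, Slc2a1 and Tagln above 0, Kdr below), 1 microglial marker, 1 neuron marker and 1 immediate early gene, beside 4.14% of all tested probe sets. The part of these cell types in the differences of the 6 genes was not tested.

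**Figure D4:**
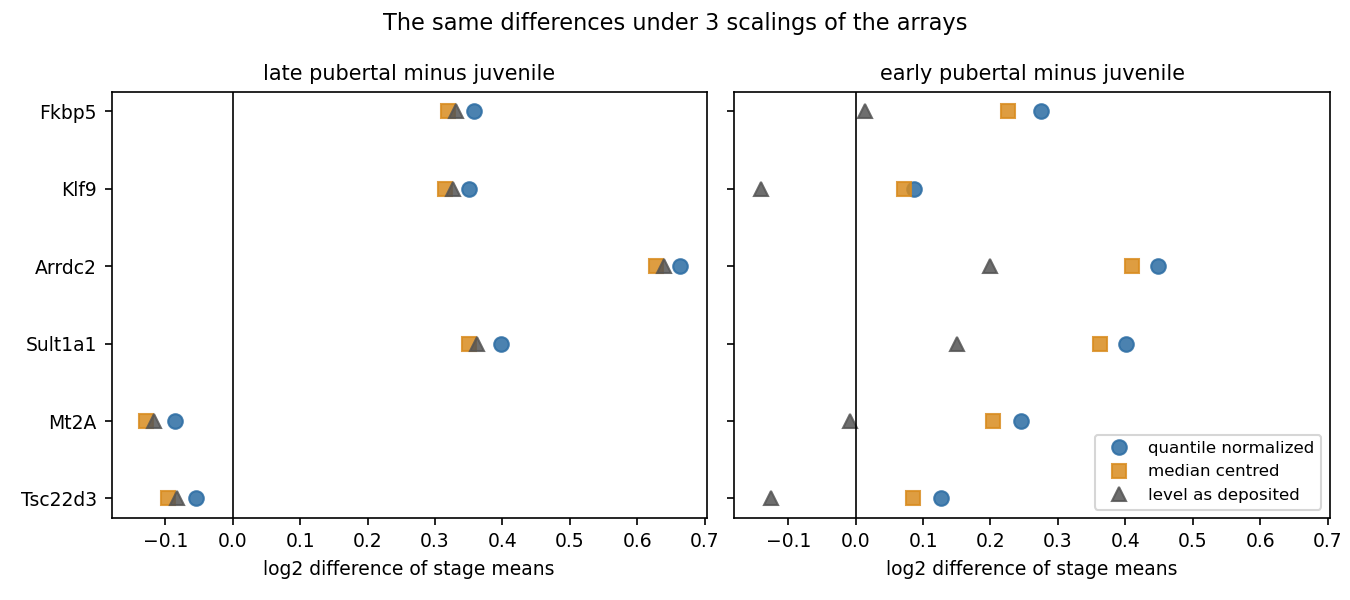
Log2 difference of stage means for the brightest probe set of each of the 6 genes, for late pubertal minus juvenile (left) and early pubertal minus juvenile (right), after quantile normalization (circles), median centring (squares) and at the level as deposited (triangles). The scalings lie close together on the left, and on the right the deposited level moves every gene down, with Klf9, Mt2A and Tsc22d3 below 0.

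The late pubertal differences moved little with the scaling of the arrays, as the plot of the 3 scalings shows. At the deposited level the late pubertal differences from juvenile animals were 0.33 for Klf9, 0.33 for Fkbp5, 0.36 for Sult1a1 and 0.64 for Arrdc2, and those of Mt2A and Tsc22d3 were −0.12 and −0.08. Arrays then stayed apart for Klf9 and Arrdc2, 2 of the 6 genes beside 2.41% of tested probe sets, and overlapped for Fkbp5 and Sult1a1. Between late and early pubertal animals 2 of the 6 genes, Klf9 and Arrdc2, were separated at the deposited level, beside 22.6% of tested probe sets.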

How the data were processed

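The authors deposited 1 linear-scale signal intensity for each probe set, made with MAS5 per the submitters' processing notes. No source used here gives its version or target level. Per the labels' protocols, tissue went into RNAlater, RNA was column-purified, and biotin-labelled cRNA was transcribed from oligo-dT-primed cDNA.

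From these, log2(signal + 16) was quantile-normalized over 31042 probe sets, leaving out 57 controls, because array levels differed. Probe sets with a mean above the 40th percentile were tested (18625, of which 14268 carry 1 symbol, standing for 10600 genes). Limma 3.58.1 in R 4.3.3 fitted 1 mean per stage over all 9 arrays, with an intensity-trended prior (degrees of freedom 6 residual, 5.80 prior). Tests were two-sided and adjusted by Benjamini-Hochberg within each comparison, at 0.05. Intervals are unadjusted. A gene is represented by its brightest tested probe set. The fit was tested on simulated data with log2 differences larger than those of the 6 genes, so that test does not speak to differences of their size.

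The 6 genes, the lists and the tests were chosen with earlier results of these data known. Counts over the lists beside background shares therefore do not test the lists as groups. From each list up to 4 genes with the smallest late pubertal against juvenile p are named, and Sgk1, Nr3c1, Nr3c2 and Crh always. Per1, Dusp1, Fkbp4, Cebpd and Ptges3 were named after their values were seen. Genes most alike are the 3 with the highest Pearson r. Labels give no batch and no shared replicate numbers. The number of arrays limits precision, and no detection calls were used. Promoters are from RefSeq (GRCr8). Alternatives were other constants, scalings, filters, priors, array weights, the 6 arrays compared, averaged probe sets of a gene and leaving out each array.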

Additional observations from a re-analysis of the deposited data

How the results depend on the processing

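Across 24 member differences (8 probe sets, 3 comparisons) and up to 20 alternatives each, 442 of 462 values kept their sign, 20 turned, and 0 passed the threshold. At the deposited level the early pubertal minus juvenile difference turned to −0.14 for Klf9, −0.059 for Fkbp5 on 1380611_at, −0.0086 for Mt2A and −0.13 for Tsc22d3, and late minus early pubertal turned to 0.16 for Fkbp5 on 1380611_at, 0.23 for Klf9 on 1387882_at, 0.21 for Sult1a1 and 0.043 for Tsc22d3, while the median of all tested probe sets moved to −0.24 and 0.22. Array weights turned Tsc22d3 to −0.033 in early pubertal minus juvenile, and Klf9 on 1387882_at to 0.024 in late minus early pubertal, where median centring gave 0.0023. Leaving out each array gave late pubertal minus juvenile ranges of −0.20 to 0.10 for Mt2A and −0.32 to 0.081 for Tsc22d3, an early pubertal minus juvenile range of −0.14 to 0.26 for Tsc22d3, and late minus early pubertal ranges of −0.16 to 0.030 for Fkbp5 on 1380611_at, −0.10 to 0.13 for Klf9 on 1387882_at and −0.065 to 0.12 for Sult1a1. Over all tested probe sets limma called 1 in late pubertal minus juvenile, 10 in early pubertal minus juvenile and 21 in late minus early pubertal at the deposited level, 1 in late pubertal minus juvenile with array weights, and 0 to 1 there without any single array, none of them a probe set of the 6 genes. Of the 6 genes, 4 had late pubertal arrays all above juvenile arrays (5.90% of all tested probe sets), and 2 at the deposited level (2.41%). Early pubertal arrays were all above juvenile arrays for 3 (3.86%), 2 with median centring (2.44%) and 0 at the deposited level (0.129%). In late minus early pubertal, median centring left 0 separated higher (5.27%) and 1, Mt2A, lower (5.22%). The cause was not tested. No paired analysis was possible because the stages share no replicate number. With 3 arrays a stage, differences of the size seen here have intervals that reach or come near 0, and probe sets under the signal filter, such as Mt1 and 1390076_at of Klf9, give no usable comparison.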
